A study of Mus musculus with 192 samples.

Results

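The kidneys of wild-type mice that had flown on the International Space Station were compared with kidneys of wild-type mice kept on the ground. These were chosen by tissue, genotype and condition in the labels, which gives 6 of the 192 libraries of the series, 3 from flight mice (FL_WT: mice 05, 08 and 10) and 3 from ground control mice (GC_WT: mice 06, 07 and 10). The animals were male mice, of the strain C57BL/6 in the labels and C57BL/6J in the methods of the study, labelled as 12 weeks old, which is the age at launch, and mice of both genotypes were flown together. The other 6 kidney libraries came from mice lacking Nrf2 (Nrf2-KO, a germline deletion present in every tissue), 3 from flight (FL_KO) and 3 from the ground (GC_KO), and they entered the fit only to share the estimate of spread and to set the wild-type difference beside that of the knockout.

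FL and GC mice with the same number are different animals. The ground control was run later and in another country, and its mice were stated to be fed CRF-1, whereas the flight mice had been acclimated to a flight food. Both groups went through behavioural tests before dissection, which for the flight mice followed landing and transport. The kidney libraries numbered first all came from ground mice and those numbered last all came from flight mice, so flight, place, season, food and library order cannot be told apart. The 6 wild-type libraries held 14006497 to 14647959 counts, mitochondrial transcripts took 18.1% to 21.0% of the TPM of the 12 kidney libraries, and the root mean square log2 distance of a library from the others of its group was 0.235 to 0.376, with knockout mouse FL11 the farthest.

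The kidney filters blood and recovers sugar, salt, water, phosphate and amino acids along a series of tubule segments, of which the proximal tubule is the largest and the most metabolically active. Proximal tubule cells burn fatty acids, make glucose, break down fructose, activate and degrade vitamin D and secrete organic acids and drugs. Nrf2 is a transcription factor that turns on detoxifying and antioxidant genes. The defining markers bore out the tissue label: *Slc34a1* of the proximal tubule was at 2320 to 2827 TPM and *Umod* of the thick ascending limb at 927 to 1174 TPM in the wild-type kidneys. TPM is a level corrected for gene length and depth.

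Of 15114 genes tested, 15 (0.0992%) were higher and 3 (0.0198%) were lower in FL_WT than in GC_WT kidney at an adjusted p under 0.05 (edgeR quasi-likelihood test, Benjamini-Hochberg adjustment). The higher genes were *Cyp4a14*, *Ugt1a1*, *Cp*, *Cyp4a10*, *Ugt1a10*, *Aqp4*, *Pigr*, *Methig1*, *Ceacam2*, *Slc5a1*, *Slc5a10*, *Tkfc*, *Slc7a12*, *Pklr* and *Cyp4a12b*, and the lower genes were *Akr1c18*, *Prc1* and *Gusb*. Their fold changes ran from 1.51 to 21.5. At an unadjusted p under 0.05, 475 genes (3.14%) were higher and 528 (3.49%) lower. Levels scaled by library size did not overlap between the groups for 977 genes higher in flight (6.46%) and 1068 lower (7.07%), among them the 18 called genes, whose low within-group spread the test itself uses. DESeq2 called 32 genes higher and 42 lower, and the count without a filter on low values was 34 and 34, so the balance of higher to lower calls rested on the tool and filter. *Cyp4a14*, *Ugt1a1*, *Cp*, *Cyp4a10* and *Ugt1a10* stayed called whichever of the 12 libraries was left out, and *Prc1* was lost in each such fit.

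**Figure D1:**
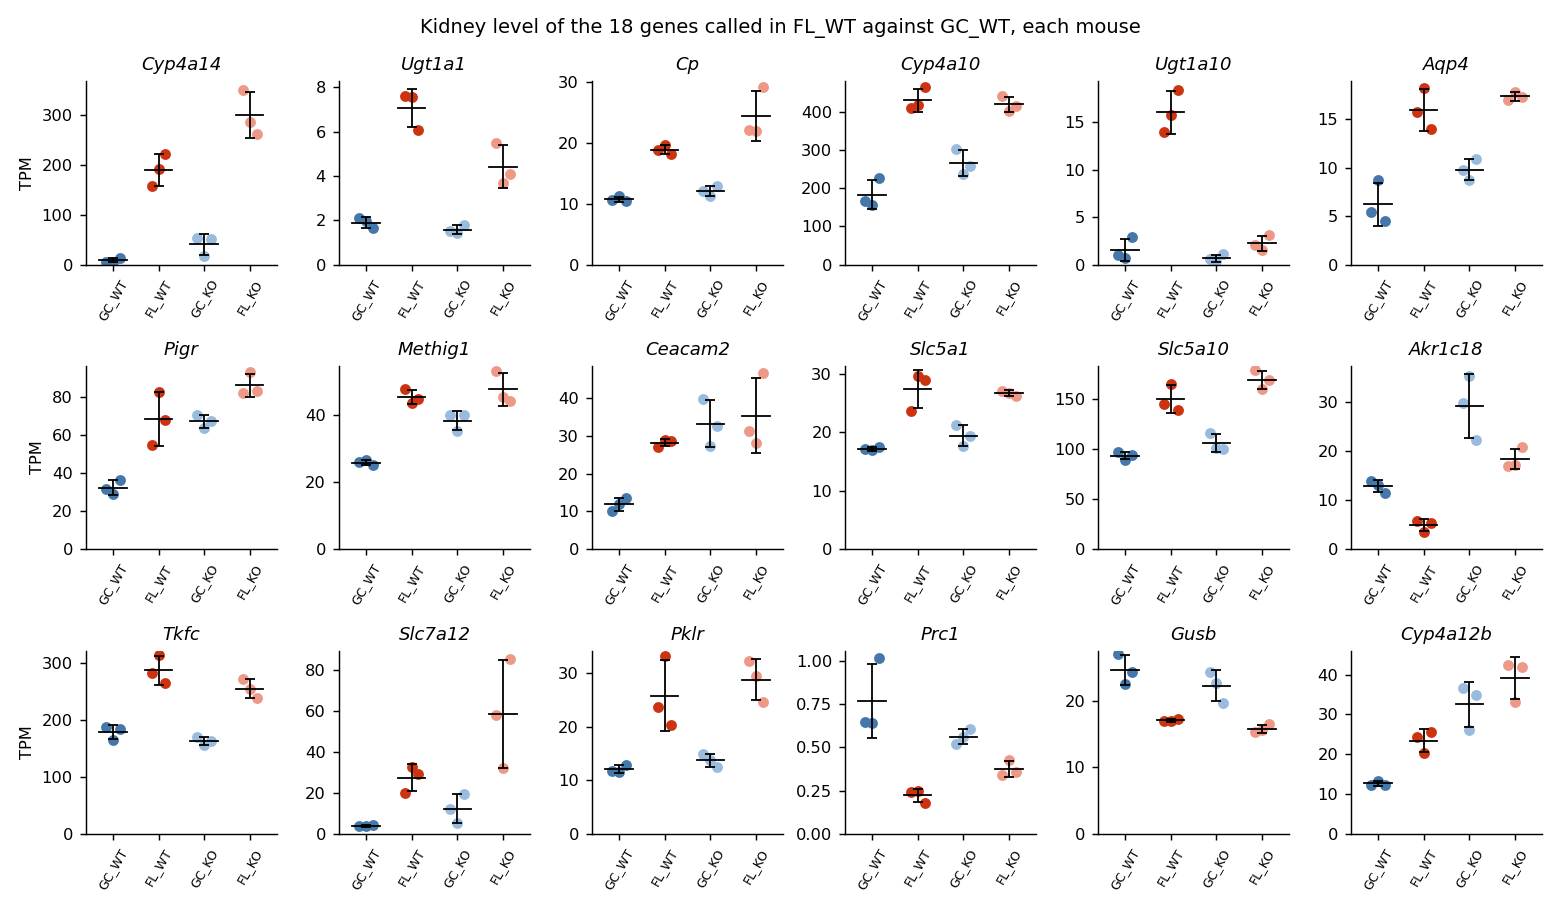
TPM (vertical axis, linear from 0) of the 18 genes called in wild-type kidney, by group (horizontal axis). Each point is 1 mouse, the long bar is the mean and the error bar is the SD over 3 mice. In each panel the 3 FL_WT points lie wholly above or wholly below the 3 GC_WT points. *Ceacam2* and *Cyp4a12b* overlap between the GC_KO and FL_KO mice.

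The largest change was in the Cyp4a enzymes, cytochrome P450s that hydroxylate the end of fatty acid chains. Among them, *Cyp4a10* and *Cyp4a14* are known targets of the fatty acid sensor PPARα. *Cyp4a14* (chromosome 4, 115486200 to 115496142, minus strand, GRCm38) was at 5.78, 6.02 and 13.3 TPM in the GC_WT mice and at 157, 191 and 220 TPM in the FL_WT mice. The lowest flight mouse was thus far above the highest ground mouse, with a log2 fold change of 4.42 ± 0.42 (SE, 3 against 3 mice, 21.5-fold, edgeR adjusted p = 0.0015). Its neighbour *Cyp4a10* (chromosome 4, 115518264 to 115533649, plus strand) started from a higher level, 156, 168 and 227 TPM, and reached 411, 418 and 465 TPM in flight, a rise of 2.24-fold (log2 1.16 ± 0.13, edgeR adjusted p = 0.0026). *Cyp4a12b* stood at 12.3, 12.4 and 13.3 TPM on the ground and at 20.2, 24.4 and 25.7 TPM in flight (1.76-fold, edgeR adjusted p = 0.044). Of 5 tested Cyp4a genes, a list drawn up after the values were seen, these 3 were called. *Cyp4a12a* was at 118 to 160 TPM on the ground and 132 to 164 TPM in flight, and *Cyp4a31* at 179 to 203 and 203 to 235 TPM, both with overlap. The Cyp4a genes are close paralogs, and how the expected counts were split between them can touch each value.

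The rest of the fatty acid pathway moved less. Of 44 tested genes of fatty acid oxidation, ketogenesis and PPARα response, the 3 Cyp4a genes were called higher and none was called lower. At an unadjusted p under 0.05, 8 were higher and 1 was lower, against 3.14% and 3.49% of all genes. The median log2 fold change was 0.12, against -0.0003 over all genes. *Cpt1a*, the entry step of mitochondrial oxidation, was at 122 to 157 TPM on the ground and 153 to 171 TPM in flight, with overlap.

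Next came enzymes that attach glucuronic acid to bilirubin, hormones and drugs so that they can be excreted. Both called members, *Ugt1a1* and *Ugt1a10*, belong to 1 cluster on chromosome 1 in which each gene has a first exon of its own and shares the last exons, so that reads in the shared exons had to be divided between them. *Ugt1a1* (88211959 to 88218997) was at 1.63, 1.96 and 2.09 TPM on the ground and at 6.09, 7.54 and 7.61 TPM in flight (3.54-fold, log2 1.83 ± 0.19, edgeR adjusted p = 0.0024). *Ugt1a10* (88055388 to 88219004) rose from 0.73, 0.98 and 2.91 TPM to 13.98, 15.8 and 18.4 TPM (9.93-fold, log2 3.31 ± 0.38, edgeR adjusted p = 0.0026). Of the 6 tested members of the cluster, a list drawn up after the values were seen, these were the ones called. *Ugt1a2* was listed at 0, 0.96 and 2.84 TPM on the ground and at 4.42, 5.08 and 7.74 TPM in flight (edgeR adjusted p = 0.42). *Ugt1a6a* was at 9.79 to 13.9 TPM and 14.7 to 21.7 TPM (edgeR adjusted p = 0.79).

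RefSeq promoter windows (GRCm38.p6, 250 bases before to 50 after a start) were found for 13 of the 18 called genes, 17 windows in all, and not matched for *Cyp4a14*, *Cyp4a10*, *Cyp4a12b*, *Aqp4* and *Slc7a12*. The stretches before the *Ugt1a10* and *Ugt1a1* starts are shown because both genes rose in wild-type flight kidneys yet are read from separate starts. That of *Tkfc* is shown because it is a called gene that holds the antioxidant response element core, the motif that Nrf2 binds. Each runs 5′ to 3′ on the strand of its gene, and capitals mark a motif match.
Ugt1a10 (chr1:88055161-88055410, plus strand): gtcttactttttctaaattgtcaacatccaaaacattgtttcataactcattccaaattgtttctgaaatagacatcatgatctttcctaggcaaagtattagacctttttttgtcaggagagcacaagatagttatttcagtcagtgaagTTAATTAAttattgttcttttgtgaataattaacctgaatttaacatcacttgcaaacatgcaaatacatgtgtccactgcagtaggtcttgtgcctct
Ugt1a1 (chr1:88211709-88211958, plus strand): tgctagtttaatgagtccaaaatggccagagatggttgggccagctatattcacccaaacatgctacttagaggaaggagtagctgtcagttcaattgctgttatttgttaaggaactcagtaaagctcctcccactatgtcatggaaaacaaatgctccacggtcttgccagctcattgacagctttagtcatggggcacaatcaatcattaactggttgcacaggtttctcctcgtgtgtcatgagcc
Tkfc (chr19:10604259-10604508, minus strand): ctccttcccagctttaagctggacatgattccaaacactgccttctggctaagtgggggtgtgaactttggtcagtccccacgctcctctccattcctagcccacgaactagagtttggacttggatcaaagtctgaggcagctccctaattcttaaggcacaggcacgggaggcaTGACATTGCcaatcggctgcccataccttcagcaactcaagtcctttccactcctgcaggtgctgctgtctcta
The capitals are a match to TTANNTAA in *Ugt1a10* and the antioxidant core (TGACNNNGC) in *Tkfc*, searched on both strands. TTANNTAA, where N is any base, is a loose form of the D-box, so the *Ugt1a10* match, TTAATTAA, need not be a D-box. The *Ugt1a1* stretch held no match to the letters searched. The antioxidant core lay in windows of *Pklr* and *Tkfc*, 2 of 17, and in 12.4% of all 32851 windows. The letters TTANNTAA lay in windows of *Akr1c18* and *Ugt1a10*, against 6.00% of all windows. An E-box (CACGTG) lay in windows of *Pigr* and *Slc5a1*, against 7.15%. The direct repeat with 1 spacer base that PPARα binds (consensus form, 0.0396% of all windows), the joint RevErb and ROR site (0.219%) and the palindromic glucocorticoid element (0.00913%) matched none of the 17. These are descriptions of letters in short windows.

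Genes of sugar uptake and of fructose breakdown were among the called genes with smaller changes. *Slc5a1* encodes the sodium-glucose cotransporter SGLT1 of the straight proximal tubule. It was at 16.9, 17.1 and 17.6 TPM in GC_WT and at 23.7, 29.0 and 29.6 TPM in FL_WT (1.51-fold, edgeR adjusted p = 0.017). *Slc5a10*, which encodes a renal carrier of fructose and mannose, was at 89.1, 93.5 and 96.3 TPM and at 139, 145 and 165 TPM (1.53-fold, edgeR adjusted p = 0.017). *Tkfc*, the kinase for the glyceraldehyde made from fructose, rose from 164, 183 and 186 TPM to 265, 281 and 314 TPM (1.53-fold, edgeR adjusted p = 0.020). *Pklr*, the liver and red cell pyruvate kinase, rose from 11.4, 11.7 and 12.8 TPM to 20.4, 23.7 and 33.1 TPM (2.03-fold, edgeR adjusted p = 0.039). Within each of the 4 genes the ground mice lay close together and all flight mice lay above them. *Slc5a10*, *Tkfc* and *Pklr* overlap genes on the other strand (*Grap* and *Fam83g*, *Cyb561a3* and *Ddb1*, and *Hcn3*), as do *Cp* (*Hps3*), *Prc1* (*Rccd1*), *Ugt1a10* (*Dnajb3*), *Ugt1a1*, *Aqp4*, *Ceacam2*, *Slc5a1* and *Cyp4a12b*, and whether the counting used the strand of the library kit is not stated.

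In a list of 16 genes of sugar uptake, fructose breakdown and lower glycolysis, drawn up after the values were seen and hence a description, these 4 were called higher, 9 were higher at an unadjusted p under 0.05, none was lower, and the median log2 fold change was 0.34. The fructose carrier *Slc2a5* was at 25.1, 29.2 and 29.8 TPM on the ground and at 37.3, 45.0 and 63.1 TPM in flight (edgeR adjusted p = 0.39). The glucose carrier *Slc2a2* was at 23.5 to 27.5 TPM and 34.9 to 39.8 TPM (edgeR adjusted p = 0.34). The fructose kinase *Khk* was at 367 to 400 TPM and 472 to 516 TPM (edgeR adjusted p = 0.50). These did not overlap between the groups, yet none passed over all genes. *Sord*, which makes fructose from sorbitol, was at 981 to 1102 and 1062 to 1140 TPM, and *G6pc*, the last step of glucose production, at 350 to 468 and 300 to 574 TPM, with overlap. In the wider list of glucose production and transport, *Slc5a1* was the 1 gene called of 22, and the median was 0.07. At an unadjusted p under 0.05, 5 of the 22 were higher, against 3.14% of all genes.

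**Figure D2:**
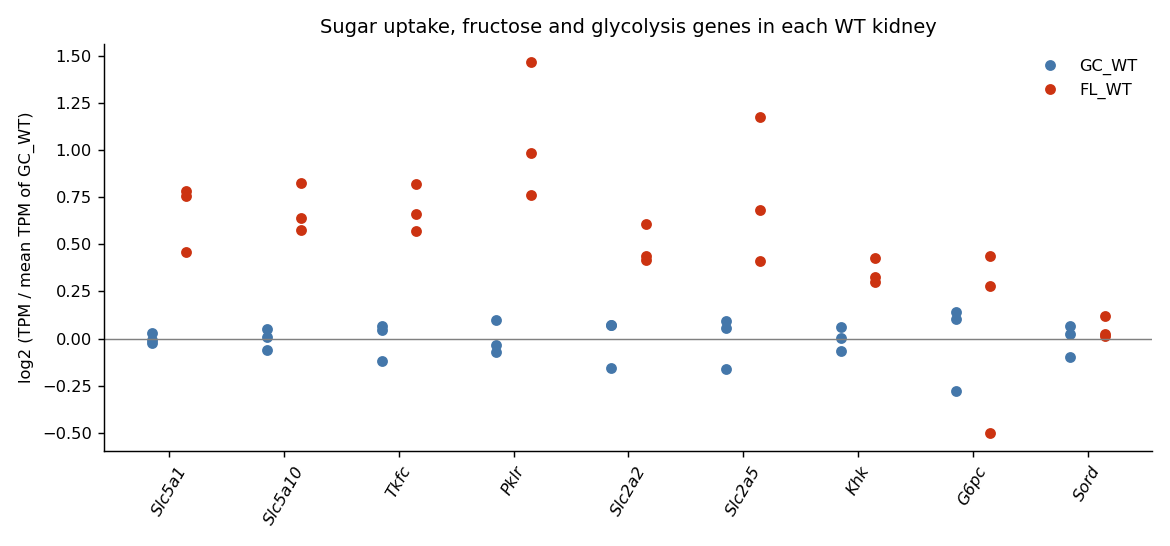
log2 ratio of the TPM of each wild-type mouse to the mean TPM of the 3 GC_WT mice (vertical axis) for the 9 genes of sugar uptake, fructose breakdown and glycolysis named in the text (horizontal axis, ordered by p), 1 point a mouse. The flight points lie above the ground points for 7 genes, from *Slc5a1* to *Khk*, and overlap them for *G6pc* and *Sord*.

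Among the other called transporters and secreted or surface proteins, *Slc7a12*, an amino acid transporter, was at 3.56, 3.82 and 4.46 TPM on the ground and at 20.04, 29.2 and 32.8 TPM in flight (6.80-fold, log2 2.77 ± 0.44, edgeR adjusted p = 0.030). *Cp* encodes ceruloplasmin, the copper-carrying ferroxidase. It was at 10.4, 10.6 and 11.2 TPM and at 18.1, 18.8 and 19.7 TPM (1.67-fold, log2 0.74 ± 0.08, edgeR adjusted p = 0.0026), and was the 1 gene called of 11 tested acute phase genes. Of those 11, 2 were higher and none lower at an unadjusted p under 0.05, against 3.14% and 3.49% of all genes. Their median log2 fold change was 0.26. Beside *Cp*, the other was *C3*, at 2.86, 2.99 and 3.58 TPM on the ground and 7.28, 7.39 and 9.51 TPM in flight (edgeR adjusted p = 0.38). *Pigr*, the receptor that carries antibodies across epithelia, rose from 28.7, 31.5 and 36.4 TPM to 54.4, 68.0 and 82.5 TPM (2.01-fold, edgeR adjusted p = 0.0051). *Ceacam2*, an adhesion molecule, rose from 10.2, 11.9 and 13.5 TPM to 27.1, 28.6 and 29.0 TPM (2.26-fold, edgeR adjusted p = 0.011). *Methig1* was at 25.0, 26.1 and 26.5 TPM and at 43.8, 44.8 and 47.8 TPM (1.67-fold, edgeR adjusted p = 0.0095), but lies over *Mettl7a2* and *Higd1c* on the same strand, so the counts of these genes are uncertain.

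*Aqp4* encodes a water channel of the basal membrane of collecting duct principal cells. Its level was 4.53, 5.38 and 8.73 TPM in GC_WT and 13.97, 15.7 and 18.2 TPM in FL_WT (2.51-fold, log2 1.33 ± 0.16, edgeR adjusted p = 0.0051), and the 3 flight mice stood above all ground mice. In whole kidney, more cells of a type and more RNA per cell cannot be told apart. Of the 7 principal cell markers *Aqp4* was the 1 that was called, their summed level was 360 to 524 TPM on the ground and 447 to 545 TPM in flight (exact permutation p = 0.3, two-sided, where 3 against 3 cannot go below 0.1), and *Aqp2*, the water channel of the opposite membrane, was at 112 to 262 and 134 to 268 TPM.

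*Aqp4* was also the 1 gene called of 43 tested genes of salt and water balance, with a median of 0.03. At an unadjusted p under 0.05, 4 of the 43 were higher and 1 lower, against 3.14% and 3.49% of all genes. The renin gene *Ren1* was at 32.1, 34.9 and 46.3 TPM on the ground and at 43.7, 78.8 and 88.1 TPM in flight, where FL10 fell within the ground range (log2 0.83 ± 0.22, edgeR adjusted p = 0.32). Angiotensinogen, *Agt*, was at 41.2 to 43.5 and 55.1 to 71.0 TPM (edgeR adjusted p = 0.36). The summed markers of juxtaglomerular and smooth muscle cells, a list that holds *Ren1*, were 86.9 to 115 TPM and 115 to 158 TPM. Podocyte markers summed to 84.1 to 105 and 119 to 125 TPM, and distal convoluted tubule markers to 360 to 376 and 388 to 420 TPM. For all 3 of these sums the exact permutation p was 0.1, the smallest this design allows, and their part in the results was not tested. The marker sums of red blood cells, B and T cells, skeletal muscle and pancreas gave that p too, not all in the same direction. Nearly all of the pancreas sum was *Cela1*, and 4 of the 6 pancreas markers were at 0 in every kidney library. The skeletal muscle sum was mostly *Mylpf*, at 0.68 to 1.97 TPM in the wild-type kidneys. Most of the distal convoluted tubule sum was *Slc12a3*, at 210 to 227 TPM on the ground and 242 to 257 TPM in flight. By edgeR, 3 markers of that segment were higher and 3 lower, none at an unadjusted p under 0.05, with a median of -0.0014. TPM values also put the median of all genes 0.060 higher in flight.

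*Cyp24a1*, which degrades active vitamin D, was at 15.3, 27.7 and 29.8 TPM in GC_WT and at 80.5, 109 and 186 TPM in FL_WT, and *Cyp27b1*, which makes it, at 3.25, 3.92 and 7.38 TPM and at 0.53, 1.12 and 2.16 TPM. In both genes the groups did not overlap, but the mice of a group differed among themselves and neither passed with edgeR (log2 2.29 ± 0.72 with edgeR adjusted p = 0.43, and -1.99 ± 0.57 with edgeR adjusted p = 0.36). Of 34 genes of calcium, phosphate and vitamin D none was called. At an unadjusted p under 0.05, 2 were higher and 1 lower, against 3.14% and 3.49% of all genes. Among 36 organic ion transporters none was called either. *Slc22a7*, an organic anion transporter of the proximal tubule, had the smallest p, at 149 to 158 TPM on the ground and 55.4, 80.1 and 105 TPM in flight (log2 -1.01 ± 0.20, edgeR adjusted p = 0.10), and DESeq2 called it lower (adjusted p = 0.00010).

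The 3 genes called lower have separate roles. *Akr1c18*, which inactivates progesterone, fell from 11.5, 13.1 and 14.02 TPM to 3.55, 5.34 and 5.82 TPM (log2 -1.45 ± 0.21, edgeR adjusted p = 0.017). *Gusb* encodes the lysosomal β-glucuronidase, which androgens induce in mouse kidney. It fell from 22.6, 24.4 and 27.0 TPM to 17.0, 17.0 and 17.3 TPM (log2 -0.59 ± 0.10, edgeR adjusted p = 0.044), and limma on log2(TPM + 1) did not call it. Of 13 tested androgen-responsive kidney genes *Gusb* was the 1 called, and the median was -0.20. At an unadjusted p under 0.05, 5 of the 13 were lower, against 3.49% of all genes, and none was higher. The most abundant of the 13, *Kap*, was at 63346 to 67856 TPM on the ground and 51512 to 54480 TPM in flight (edgeR adjusted p = 0.34).

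*Prc1* builds the spindle midzone in dividing cells, and rested on 19, 19 and 29 counts in the GC_WT mice and 7, 7 and 5 in the FL_WT mice (log2 -1.83 ± 0.30, edgeR adjusted p = 0.042). It was the 1 gene called of 34 tested proliferation genes. At an unadjusted p under 0.05, 16 of the 34 were lower, against 3.49% of all genes, and none was higher. The median log2 fold change was -0.54, or -0.19 on log2(TPM + 1). *Mki67*, a marker of cycling cells, was at 0.81, 0.90 and 1 TPM on the ground and at 0.34, 0.37 and 0.47 TPM in flight (edgeR adjusted p = 0.16), and *Rrm2*, which makes DNA precursors, at 1.89 to 2.15 and 0.93 to 1.12 TPM (edgeR adjusted p = 0.16). In both the groups stood apart.

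The summed level of 5 red blood cell markers moved in the same direction as the proliferation genes, from 965, 1125 and 1308 TPM in GC_WT to 591, 606 and 713 TPM in FL_WT (exact permutation p = 0.1, the smallest possible). None of the 5 was at 0, and each was lower at an unadjusted p under 0.05. Adult globin *Hbb-bs* was at 381, 433 and 486 TPM and at 230, 233 and 250 TPM (log2 -0.94 ± 0.18, edgeR adjusted p = 0.10), and DESeq2 called it lower (adjusted p = 0.00012). Of 19 tested erythroid genes none was called by edgeR and 8 were lower at an unadjusted p under 0.05, against 3.49% of all genes. In the spleens of wild-type mice of this study, 18 of 30 erythroid genes were called lower, against 1.11% of all spleen genes. Their median was -1.54. The part of blood in the kidney values was not tested.

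**Figure D3:**
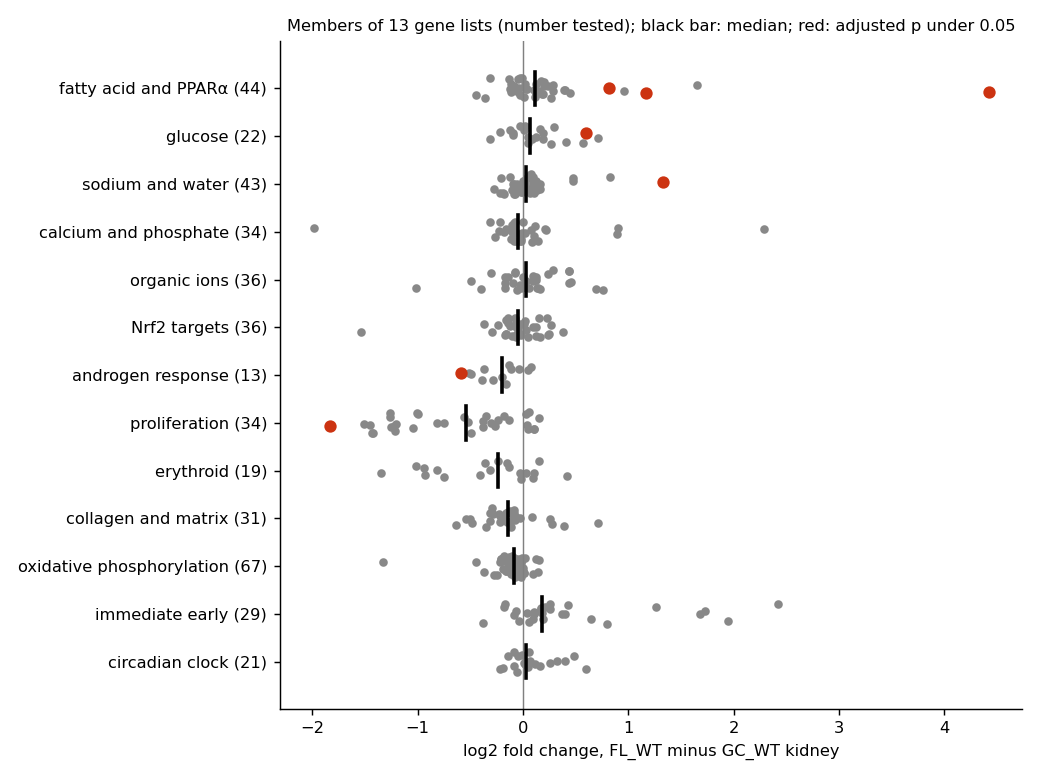
log2 fold change of FL_WT against GC_WT kidney (horizontal axis) for each tested member of 13 gene lists (vertical axis, number tested in brackets). Points are genes, red points passed an adjusted p under 0.05, and black bars are medians. The proliferation median lies at -0.54 (-0.19 on log2(TPM + 1)) and the fatty acid median at 0.12, while *Cyp4a14* stands alone at 4.42.

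The other lists gave no edgeR call in wild-type kidney. Of 36 tested Nrf2 target genes 1 was higher and 4 were lower at an unadjusted p under 0.05, with a median of -0.05. Over all genes 3.14% were higher and 3.49% lower. *Nqo1*, a reductase widely used as an Nrf2 readout, was at 43.4 to 55.3 TPM on the ground and 48.5 to 63.5 TPM in flight (edgeR adjusted p = 0.95). *Nfe2l2*, which encodes Nrf2, was at 48.6, 53.8 and 57.7 TPM and at 58.1, 60.2 and 70.9 TPM (edgeR adjusted p = 0.86), against 22.04 to 34.6 TPM over the Nrf2-KO kidneys. The carboxylesterase *Ces1g* was the nearest gene outside the threshold, at 17.5, 21.6 and 32.1 TPM in GC_WT and 7.07, 9.34 and 9.37 TPM in FL_WT (log2 -1.54 ± 0.26, edgeR adjusted p = 0.051), and DESeq2 called it lower (adjusted p = 1.6e-05), while *Cyp4a12b* was the last inside it.

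The integrated stress response had 4 of 22 genes lower and none higher at an unadjusted p under 0.05 (median -0.29), the p53 targets 4 of 21 lower and 1 higher, the heat shock genes 2 of 33 lower and none higher, and the glucocorticoid response genes 1 of 19 lower and none higher. Of 38 interferon genes 2 were higher and 1 was lower. Of 13 genes of class II presentation and immunoglobulins 2 were lower and none was higher. Over all genes 3.14% were higher and 3.49% lower at that threshold, and the heat shock, glucocorticoid and interferon counts lie near these shares.

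At an unadjusted p under 0.05, 3.14% of all genes were higher and 3.49% lower. Of 29 immediate early genes 6 were higher at that p and none was lower, led by *Egr2*, *Fosb* and *Fos*. *Fos* was at 1.3, 1.91 and 4.41 TPM and at 5.57, 11.1 and 14.5 TPM (edgeR adjusted p = 0.45). Of 67 nuclear oxidative phosphorylation genes 10 were lower and none was higher (median -0.08), and of 31 collagen and matrix genes 8 were lower and 1 was higher (median -0.14), all at an unadjusted p. *Col3a1*, a fibrillar collagen, was at 4.62 to 5.70 and 2.94 to 3.94 TPM (edgeR adjusted p = 0.13). Of 25 cholesterol genes 5 were lower and 1 was higher (median -0.13), and of 21 kidney injury genes 3 were lower and none was higher. *Havcr1*, the kidney injury marker KIM-1, was at 1.09 to 1.65 and 0.79 to 0.92 TPM (edgeR adjusted p = 0.69).

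None of 21 circadian clock genes differed at an unadjusted p under 0.05, and their spread lay within the groups. *Dbp*, an output gene of the clock chosen after its values were seen, was at 32.7 TPM in GC06 and 36.9 TPM in FL05 but at 8.63 to 11.7 TPM in the other 4 wild-type mice. *Arntl*, a core clock activator, was low in the same animals, at 5.12 and 2.83 TPM against 13.4 to 17.5 TPM. So 1 mouse of each group differed from the rest in these clock genes. Leaving out GC06 ended 13 of the 18 calls and leaving out FL05 ended 6, against 12 without GC07, 10 without GC10, 9 without FL08 and 6 without FL10, with the direction of all 18 kept.

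In the Nrf2-KO kidneys, 10 genes (0.0662%) were higher and 14 (0.0926%) lower in flight. The wild-type and knockout comparisons share no library, although the same fit and spread served both. All 18 wild-type calls had the same sign in the knockout, against 62.4% of all genes. Of these, 7 were also called there (*Cyp4a14*, *Ugt1a1*, *Cp*, *Slc5a10*, *Tkfc*, *Slc7a12* and *Pklr*) and 15 had an unadjusted p under 0.05. Over all 15114 genes, 950 were higher and 991 lower at that p in the knockout, more than in wild type. Without FL_KO mouse 11 the number also called in the knockout was 11, and without FL_KO mouse 01 it was 1. The size was larger in wild type for 17 of the 18, which were chosen for a large change in wild type, with *Cp* the exception.

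Some genes were nearly alike in size. *Slc5a10* had a log2 fold change of 0.61 in wild type and 0.61 in the knockout, *Pklr* 1.02 and 0.999, and *Tkfc* 0.61 and 0.58. *Cyp4a14* had 4.42 and 2.84, from a knockout ground level of 16.4, 51.8 and 52.2 TPM to 260, 285 and 349 TPM. *Ugt1a10* had 3.31 and 1.68, from 0.34, 0.57 and 1.07 TPM to 1.52, 2.04 and 3.14 TPM in the knockout (edgeR adjusted p = 0.21). *Ceacam2* had 1.18 and 0.01. Its knockout mice were at 27.2, 32.7 and 39.8 TPM on the ground, the range that FL_WT mice reached or above it, and at 28.2, 31.2 and 46.7 TPM in flight. *Pigr* (63.7 to 70.4 TPM) and *Cyp4a12b* (26.1 to 36.5 TPM) also stood above the GC_WT range in GC_KO mice. Several other called genes did so too. Among them were *Methig1* and *Cyp4a10*, which were higher in flight, and *Akr1c18* (22.3 to 35.5 TPM), which was lower in flight. The test of the difference itself, a flight by genotype interaction, called 0 of 15114 genes (0%) with edgeR. The smallest edgeR adjusted p was 0.76, and 511 genes (3.38%) had an unadjusted p under 0.05, among them 10 of the 18. Those 18 were chosen by the wild-type change, which is part of this contrast, so their count cannot be read against the share of all genes. limma called 0 and DESeq2 called 4, *Ceacam2* and *Ces1g* among them. A difference between the genotypes was therefore not shown by the main test, and was not shown to be absent.

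**Figure D4:**
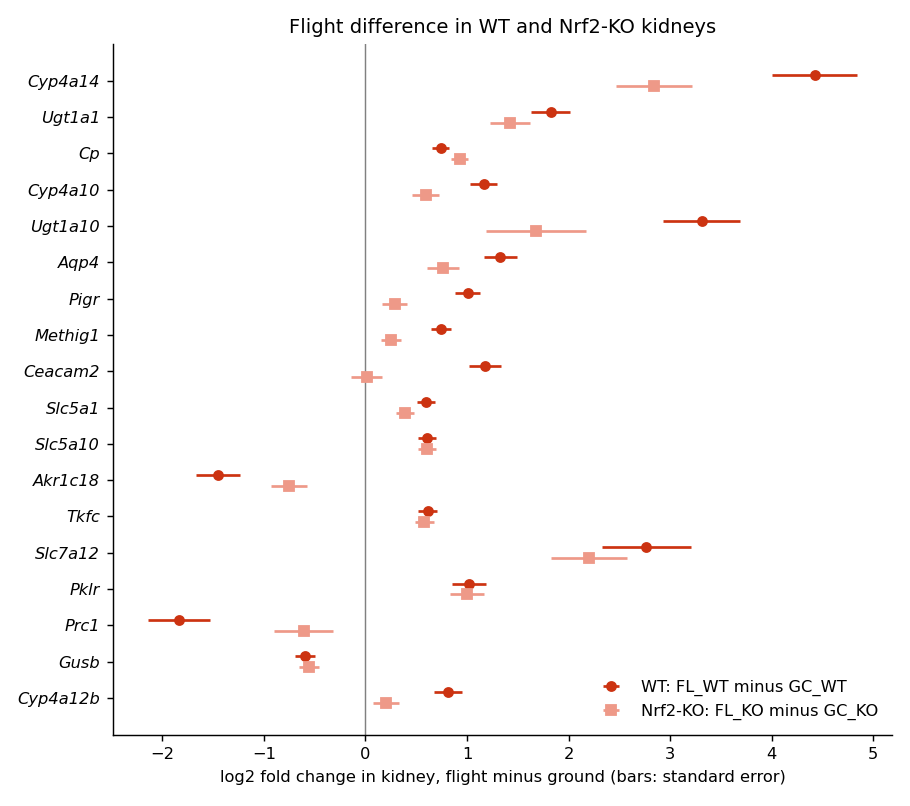
log2 fold change in kidney, flight minus ground (horizontal axis), of the 18 called genes (vertical axis) in wild-type mice (circles) and Nrf2-KO mice (squares), with SE from edgeR over 3 against 3 mice. All squares lie on the same side of 0 as the circles, and that of *Ceacam2* lies at 0.01.

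Over the 12 kidney libraries, the gene whose log2 level followed *Cyp4a14* most closely was *Cyp4a10* (Pearson r = 0.97), then *Slc7a12* (0.96) and *Spry4* (0.94). *Ugt1a1* was followed by *Tkfc* (0.96), *Vamp1* (0.94) and *Eno1* (0.92), and *Cp* by *Slc7a12* (0.93), *Slc5a10* (0.93) and *Stat3* (0.93). The 12 points share the flight and ground grouping, so these values describe likeness of pattern within it and carry no test.

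The same flight mice and ground mice gave liver and spleen, with 6 wild-type mice a group. In liver 206 genes (1.53%) were higher and 257 (1.91%) lower of 13433, and 12 of the 18 kidney genes could be tested. *Cyp4a14* was higher there too, at 60.7, 181 and 368 TPM (lowest, median and highest) on the ground and 531, 950 and 1160 TPM in flight (log2 2.08 ± 0.34, edgeR adjusted p = 0.0017). *Cp* was at 351, 381 and 461 TPM and at 442, 502 and 569 TPM (log2 0.32 ± 0.07, edgeR adjusted p = 0.016), and *Gusb* at 14.3, 15.7 and 17.7 TPM and at 11.6, 13.6 and 14.2 TPM (log2 -0.32 ± 0.09, edgeR adjusted p = 0.047). These 3 moved in the same direction as in kidney. The other 9 tested did not pass with edgeR. *Cyp4a10* was at 157, 272 and 424 TPM on the ground and at 326, 536 and 807 TPM in flight (log2 0.85 ± 0.28, edgeR adjusted p = 0.10), and was called by DESeq2 (adjusted p = 0.045). *Ugt1a1* was at 355 to 518 and 571 to 680 TPM (edgeR adjusted p = 0.20). *Ugt1a10* was at 0.49 to 1.46 TPM and 0.35 to 1.25 TPM in liver, *Tkfc* at 193 to 256 and 185 to 318 TPM, and *Pklr* at 84.0 to 141 and 83.6 to 107 TPM.

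In spleen 186 genes (1.15%) were higher and 180 (1.11%) lower of 16170. Of the 9 kidney genes tested there edgeR called 0, as did DESeq2, and *Pigr* and *Prc1* had an unadjusted p under 0.05. *Pigr* was at 0.83 to 3.14 TPM on the ground and 0.62 to 1.24 TPM in flight, and *Prc1* at 11.01 to 16.1 and 9.06 to 12.8 TPM. The difference between tissues was not tested.

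**Figure D5:**
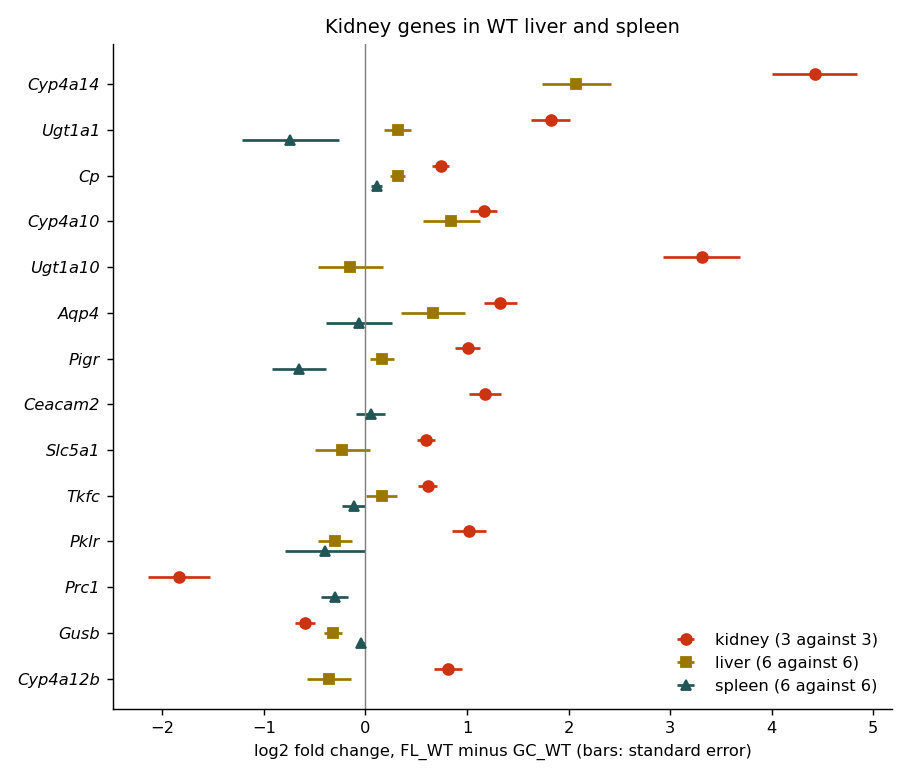
log2 fold change of FL_WT against GC_WT (horizontal axis) in kidney (circles, 3 against 3 mice), liver (squares) and spleen (triangles, both 6 against 6), with SE from edgeR, for the called kidney genes tested in at least 1 of the other tissues (vertical axis). *Cyp4a14* lies at 4.42 in kidney and 2.08 in liver, and *Ugt1a10* at 3.31 and -0.15.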

How the data were processed

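Poly(A) RNA of whole kidney was sequenced with a strand-specific kit. Per the labels, the authors aligned reads to mm10 with STAR 2.6.1 and quantified genes with RSEM 1.3.1, and the deposited table gives expected counts, TPM and FPKM for 54752 genes. The strand setting of the counting is not given in the sources used here. FPKM and the columns of other tissues (456 columns) were not used.

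The deposited expected counts were rounded and the 12 kidney libraries fitted together with edgeR 4.0.16 (TMM, filterByExpr, quasi-likelihood, Benjamini-Hochberg over all genes, R 4.3.3). An adjusted p under 0.05 is a call. SEs are those implied by the F test. The deposited TPM values serve for levels, marker sums and limma 3.58.1 on log2(TPM + 1) or log2(TPM + 0.1), with a TPM of at least 5 in a group. DESeq2 1.42.0, RLE scaling, other filters and left-out libraries were the alternatives. On simulated data for FL_WT against GC_WT, 14926 genes were tested. Of these, edgeR recovered 71.7% of 99 genes changed by 1 on the log2 scale and 93% of 100 changed by 2, with 6 false calls. The counts were drawn independently from the fitted spread, so these shares need not hold for the real libraries.

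Knockout mouse FL04 was left out of the liver and spleen fits, which share their spread with the knockout libraries, and included as an alternative. No libraries were duplicates (chi-square per degree of freedom of 6.05 or more within groups). Each library is a separate mouse. Depths of 14006497 to 14647959 counts in the wild-type kidneys limit genes of few counts.

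Genes named are those called, up to 4 of each list by p, defining markers, the 3 most alike in pattern, and up to 10 that DESeq2 alone called, and a few others. The members and lists were chosen with earlier results of these data known, and the sugar, Ugt1a and Cyp4a lists after the values were seen. Coordinates are from GENCODE vM21 (GRCm38, the build named mm10) and promoters from RefSeq. Some members of the lists are counted but their own values are not reported here.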

Additional observations from a re-analysis of the deposited data

Results flagged for a closer look

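Flight by genotype differences are given here as the change in Nrf2-KO kidneys less the change in wild-type kidneys. edgeR called none of them. DESeq2 called *Ceacam2* (log2 -1.17, adjusted p = 0.015), *Ces1g* (log2 1.89, adjusted p = 0.019), *Hao2* (log2 -0.88, adjusted p = 0.029) and *Gm32687* (log2 -7.50, adjusted p = 0.037). *Hao2*, a peroxisomal oxidase of hydroxy acids, was at 95.2, 126 and 130 TPM in GC_WT, 174, 174 and 185 TPM in FL_WT, 327 to 418 TPM in GC_KO and 257 to 387 TPM in FL_KO mice. *Ces1g* was at 4.25 to 7.44 TPM in GC_KO and 4.92 to 8.75 TPM in FL_KO mice, against 7.07 to 9.37 TPM in FL_WT mice. *Gm32687* was listed at 0 in all 3 GC_WT mice and at 0.78 to 1.40 TPM in FL_WT, so its fitted size is no measure of fold.

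*Cxcl10*, an interferon-induced chemokine, stood apart in opposite directions, higher in all FL_WT mice (4.21 to 4.67 TPM against 2.49 to 3.44 TPM) and lower in all FL_KO mice (0.76 to 1.65 TPM against 2.85 to 3.92 TPM). Its log2 difference of differences was -2.04 ± 0.34, with an edgeR adjusted p of 0.76.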

How the results depend on the processing

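All 18 calls kept their direction wherever they had a value. Counts of calls moved more. In FL_WT against GC_WT the main counts were 15 higher and 3 lower, against 32 and 42 with DESeq2, 34 and 34 with no filter on low counts, 26 and 14 with only the WT libraries, and 15 and 1 with limma at either pseudocount. DESeq2 kept 17 of the 17 it could test. With 1 of the 12 libraries left out, 5 to 16 were higher and 0 to 6 lower. The number of the 18 still called was 5 without GC_WT mouse 06, 6 without 07 and 8 without 10, and 12, 9 and 12 without FL_WT mice 05, 08 and 10, fits with fewer samples. In FL_KO against GC_KO the main 10 and 14 became 59 and 122 with DESeq2, 1 and 0 with only the KO libraries, and 0 lower with limma. Left-out libraries gave 2 to 150 higher and 0 to 200 lower, where 150 and 200 came without FL_KO mouse 11. In FL11 the liver marker *Alb* was at 47.6 TPM, against 3.04 to 7.47 TPM in the other kidneys. *Apoa1* was at 9.91 TPM there, against 0.62 to 2.31 TPM, while *Ttr* lay within the range of the others. The adipocyte marker *Cfd* was highest in GC02 and FL02, at 14.07 and 12.5 TPM. The cause of the change in counts was not tested. The interaction gave 0, 4 with DESeq2 and 0 to 3 with left-out libraries.

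No paired analysis was possible for wild-type kidney because FL and GC mice share 1 number. In the KO libraries, 2 shared numbers allowed a replicate block, which gave 26 higher and 28 lower. The deviations of same-numbered mice from their group means, gene by gene on log2(TPM + 1), correlated at 0.12 and 0.28. In liver and spleen the replicate block called 4 (*Cyp4a10* in liver with edgeR adjusted p = 0.039) and 0 of the kidney genes. Over all genes it called 751 in liver and 250 in spleen, against 463 and 366 in the main fits. The correlations of such deviations were 0.036 to 0.43 in liver, with 4 of 6 over 0.1, and -0.18 to 0.050 in spleen, with 0 over 0.1. In liver 3 of 6 flight mice were most like the ground mouse of their number in these deviations, and in spleen 0. Whether shared numbers mark a pairing was not tested. On log2(TPM + 1) the proliferation median was -0.19. Over log2(TPM + 1) and each WT library left out, 14 of 41 list medians changed sign at least once, Nrf2 targets, salt and water, calcium, organic ions, clock, glucocorticoid, interferon and injury among them, and the largest was the adipocyte markers (-1.70, 0.13 without GC_WT mouse 07). TPM values put the median of all genes 0.060 higher in flight.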
